A study of Mus musculus with 16 samples.

Results

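The chemokine system was read in tdTomato-sorted lung cells as every protein-coding gene whose symbol marked it as a chemokine ligand (Ccl, Cxcl, Cx3cl or Xcl with a number), a chemokine receptor (Ccr, Cxcr, Cx3cr or Xcr) or an atypical receptor (Ackr). The rule found 67 genes of 49452 in the tables, under 61 symbols: 44 ligands, 19 receptors and 4 atypical receptors. Of these, 9 were listed at 0 in all 16 mice, another 12 stayed below 1 FPKM (mapped fragments scaled for transcript length and for the total of the library) in every mouse, and 46 reached 1 FPKM in at least 1 mouse. Cells were sorted from the left lung lobe of adult mice that carried the tdTomatoflox reporter with either Acta2-CreERT2 or Pdgfra-CreERT2, tamoxifen-inducible Cre recombinases driven by the promoter of the smooth muscle actin gene or of Pdgfra, the gene for platelet-derived growth factor receptor alpha. Mice were given saline or bleomycin, an agent used to provoke lung fibrosis, and were 11 weeks old at the 14 day time point. Sorted cells are called Acta2-tdT or Pdgfra-tdT after the line, and each line had 4 mice given saline and 4 given bleomycin, which makes 4 groups with 1 library per mouse. Acta2-tdT mice were fed 400 mg/kg tamoxifen chow from 5 days after the agent, so that cells switching on Acta2 during the response could be labelled. Pdgfra-tdT mice had 5 injections of 3 mg tamoxifen at 6 weeks of age, before the agent, so that the labelled cells were those with an active Pdgfra promoter in the undamaged lung. Promoter, labelling route and labelling time thus differed together between the lines and cannot be told apart, and p-values measure only the spread between these mice.

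Chemokines are small secreted proteins that guide leukocytes along gradients by way of G protein-coupled receptors. CC ligands mostly act on Ccr receptors and draw monocytes, macrophages, eosinophils and T cells, whereas CXC ligands act on Cxcr receptors and draw neutrophils, lymphocytes and progenitors. Atypical receptors bind ligands without the usual G protein signal and clear them. In the injured lung, epithelial, stromal and myeloid cells are all known to release chemokines.

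The summed FPKM of nuclear protein-coding genes ranged from 36688 to 60947 in saline-treated and from 241916 to 466183 in bleomycin-treated Acta2-tdT mice, and from 29964 to 61168 and 29727 to 147467 in the Pdgfra-tdT mice. Each comparison was therefore made on FPKM as deposited and again after scaling each mouse to the same nuclear protein-coding sum. Acta2 mRNA was at 139 to 314 and 1229 to 3211 FPKM in the Acta2-tdT groups and at 0.83 to 19.4 in the Pdgfra-tdT mice. Pdgfra mRNA was at 2.13 to 3.82 FPKM in Pdgfra-tdT saline against 0.27 to 0.56 in Acta2-tdT saline, but after bleomycin it was higher in Acta2-tdT cells (2.49 to 11.9 FPKM) than in Pdgfra-tdT cells (0.98 to 2.45 FPKM). After scaling that order of the means turned, at 1.05 in Acta2-tdT and 1.56 in Pdgfra-tdT bleomycin, with overlap. Leukocyte genes were present in the sorted material. The 11 macrophage markers, all detected, summed to 70.2 to 440 FPKM with saline and 2286 to 9983 with bleomycin in Acta2-tdT cells, and to 42.4 to 89.9 and 382 to 3241 in Pdgfra-tdT cells, and none of them was at 0 throughout a group. The 10 neutrophil markers summed to 741 to 1519, 1163 to 5739, 20.8 to 44.7 and 8.40 to 147 FPKM in the same order, with 1 of them at 0 throughout Acta2-tdT bleomycin. The 7 T cell markers summed to at most 5.58 FPKM in any mouse. In sorted bulk material, more cells of a type and more RNA per cell cannot be told apart. Within Pdgfra-tdT, saline mouse 3 and bleomycin mouse 5 stood apart with the highest nuclear protein-coding sums of their groups.

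Ligands carried most of the chemokine signal, and their level and make-up differed among groups. Summed ligand FPKM was 59.6, 47.8, 106 and 164 in mice 1 to 4 of Acta2-tdT saline, and 809.7, 1094, 2006 and 1007 in mice 5 to 8 of that line after bleomycin. Pdgfra-tdT cells had 21.1, 16.1, 50.7 and 22.0 with saline and 393, 174, 293 and 46.8 with bleomycin. The bleomycin mice of Acta2-tdT lay above every other mouse, while in Pdgfra-tdT the lowest bleomycin mouse lay below the highest saline mouse, which was mouse 3. Without that mouse the highest saline sum was 22.0 FPKM and the Pdgfra-tdT groups did not overlap. After scaling, the sums spanned 67.7 to 140 and 112 to 237 in saline-treated and bleomycin-treated Acta2-tdT mice, which overlapped, against 27.9 to 43.1 and 81.9 to 345 in Pdgfra-tdT, which did not. Receptors summed to less, 10.8 to 15.4, 49.8 to 99.1, 4.35 to 10.8 and 9.17 to 15.3 FPKM in the 4 groups. In Pdgfra-tdT saline mouse 2 they were at 10.8 FPKM, beside 16.1 for ligands. Atypical receptors summed to 0.41 to 0.72, 0.15 to 1.52, 0.55 to 6.73 and 0.63 to 17.4 FPKM in the 4 groups. Without Pdgfra-tdT saline mouse 3 and bleomycin mouse 5 the highest atypical receptor sums of those groups were 0.78 and 1.73 FPKM. As a gauge of what sparse libraries give to genes these cells have no use for, the 95th percentile of 1443 olfactory and vomeronasal receptor genes averaged 2.75 FPKM with saline and 1.14 with bleomycin in Acta2-tdT, and 3.61 and 2.98 in Pdgfra-tdT. In the same order, a mean of 7, 30.5, 2 and 5.5 chemokine genes per mouse lay above that mark, a handful in 3 of the groups. Some unused genes lie above a 95th percentile by construction, so a few members above it need not be expressed.

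**Figure D1:**
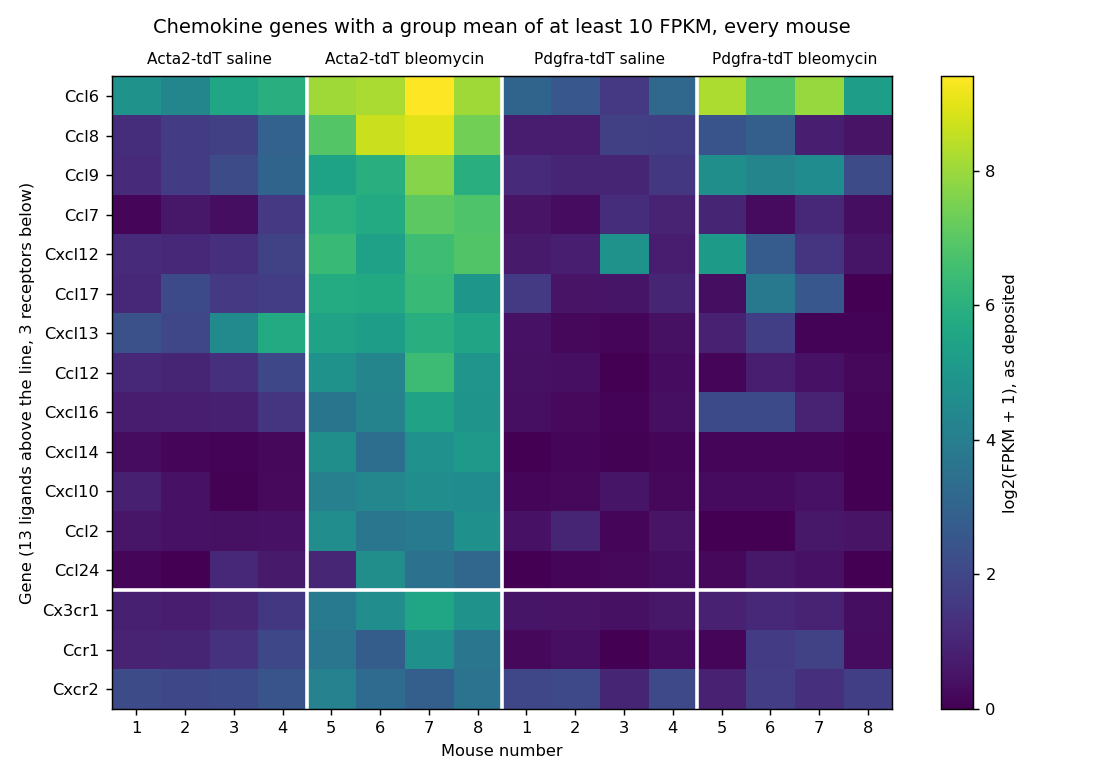
Heat map of log2(FPKM + 1) in each of the 16 mice (columns, by mouse number within group) for the 16 chemokine genes with a group mean of at least 10 FPKM (rows, 13 ligands above the line and 3 receptors below it). Acta2-tdT bleomycin mice are bright in nearly every row, Pdgfra-tdT bleomycin mice mainly in Ccl6 and Ccl9, and Pdgfra-tdT saline mouse 3 in Cxcl12.

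Ranked by mean FPKM, which is per length of transcript and so can be set between genes, Ccl6 led the members in 3 of the 4 groups. The order in Acta2-tdT bleomycin was Ccl6 at 376 ± 200 (SD, n = 4), Ccl8 at 294 ± 179, Ccl9 at 92.5 ± 77.3, Ccl7 at 88.9 ± 37.3 and Cxcl12 at 81.3 ± 30.5 FPKM, in which each neighbouring pair differed by less than its SD except Ccl8 and Ccl9. In Pdgfra-tdT bleomycin Ccl6 at 174 ± 121 FPKM was followed by Ccl9 at 17.5 ± 9.68 and Cxcl12 at 10.5 ± 15.99. Without mouse 5 of that group Cxcl12 was at 2.60 ± 2.76 (SD, n = 3), behind Ccl17 at 5.92 ± 6.53 FPKM. In Acta2-tdT saline Ccl6 at 38.0 ± 18.8 FPKM was followed by Cxcl13 at 20.1 ± 23.1 and Ccl19 at 5.22 ± 1.52. In Pdgfra-tdT saline Cxcl12 stood first at 7.40 ± 13.5 FPKM only through mouse 3, ahead of Ccl6 at 5.49 ± 2.68. Without that mouse they were at 0.67 ± 0.06 (SD, n = 3) and 6.66 ± 1.59 FPKM.

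As a share of summed ligand FPKM, which no scaling of a mouse can move, Ccl6 made up 41.1% ± 3.48 (SD, n = 4) with saline and 30.0% ± 3.66 with bleomycin in Acta2-tdT, and 26.0% ± 14.95 with saline and 75.6% ± 8.09 with bleomycin in Pdgfra-tdT. Saline mouse 3 of Pdgfra-tdT was at 3.90%, and without it the saline share was 33.4% ± 2.96 (SD, n = 3). Every Pdgfra-tdT bleomycin mouse lay above every other mouse for that share, with 64.6% as its lowest. Ccl8 held 23.1% ± 10.1 in Acta2-tdT bleomycin against 3.25% ± 1.13 with saline in the same line, and 5.70% ± 3.31 and 1.44% ± 1.45 with saline and bleomycin in Pdgfra-tdT. Cxcl13 took 16.1% ± 12.2 in Acta2-tdT saline and at most 5.14% in any mouse of the other groups. The 13 ligands with a group mean of at least 10 FPKM together held 93.6% to 96.2% in Acta2-tdT bleomycin and 88.8% to 95.7% in Pdgfra-tdT bleomycin, and 65.4% to 85.1% and 61.4% to 75.2% with saline in these lines. All 13 reached that mean in Acta2-tdT bleomycin, so their choice favoured a high share there. These shares were not put to a test.

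**Figure D2:**
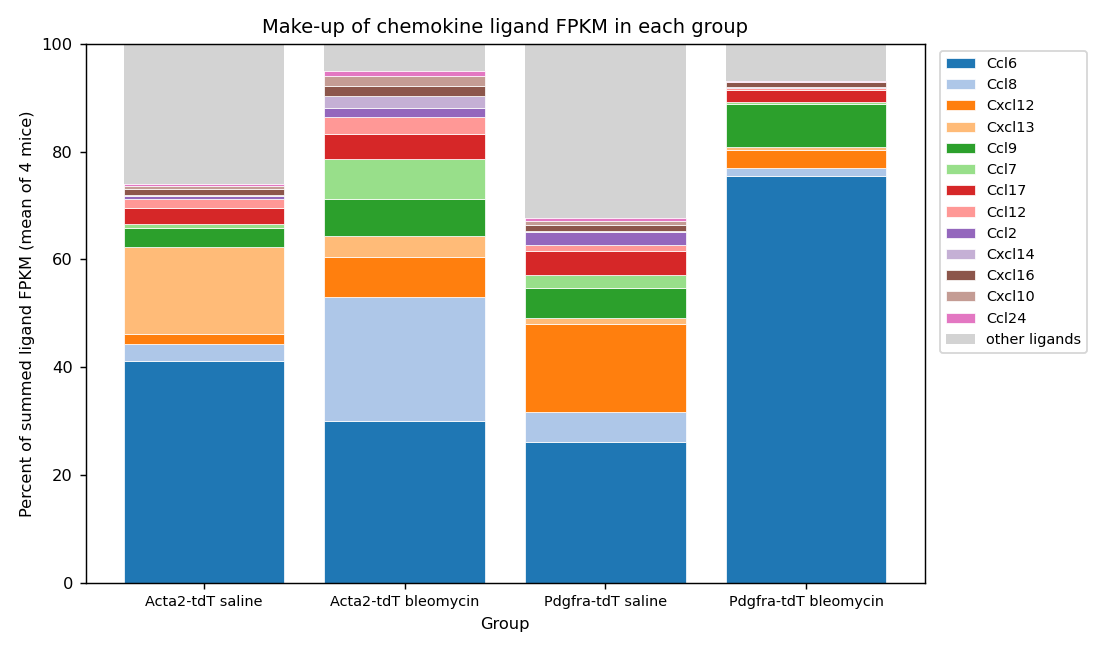
Stacked bars of the mean share of summed ligand FPKM (percent, mean of 4 mice) held by 13 ligands in each of the 4 groups, with all other ligands in grey. Ccl6 takes 75.6% in Pdgfra-tdT bleomycin, and Ccl8 takes 23.1% in Acta2-tdT bleomycin.

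In Acta2-tdT cells, bleomycin raised most of the chemokine genes that could be tested, and a smaller set stayed higher once the larger nuclear protein-coding sum of those libraries was taken out. Of the 67 members, 26 passed the filter (at least 1 FPKM in at least 4 of the 8 mice), and 22 were higher and 1 lower with bleomycin by limma on log2(FPKM + 1) with Benjamini-Hochberg adjustment over all 12523 genes tested. Among all genes tested, 70.4% were higher and 16.3% lower, so the count of members on this scale sits in a general rise. After scaling, 11 members were higher, where 24.5% of all genes were, and 4 were lower, where 32.5% were. The median log2 fold change of the tested members was 2.50 as deposited and 0.25 scaled, against 1.76 and -0.01 over all genes. For 5 of the 26 tested members (Cxcl1, Ccl25, Ccl2, Cxcl10 and Cxcl14) only the 4 bleomycin mice reached 1 FPKM, so the filter itself favoured a rise and the counts describe the tested members alone.

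The CC ligands Ccl2, Ccl7 and Ccl12, which act on Ccr2 and draw monocytes out of the blood, and Ccl8, which in the mouse acts on Ccr8, rose together. Ccl2 was at 0.47, 0.38, 0.33 and 0.36 FPKM in saline mice 1 to 4 and at 23.4, 11.9, 13.3 and 25.5 in bleomycin mice 5 to 8. Ccl7 went from 0.13, 0.51, 0.29 and 1.97 FPKM to 62.6, 52.5, 130.2 and 110.3. Neither gene overlapped between the groups. Ccl12 was at 1.04, 0.96, 1.42 and 3.08 FPKM with saline and 26.8, 18.4, 86.7 and 29.2 with bleomycin. Ccl8, with the largest change of the family on the log2 scale of FPKM + 1, was at 1.36, 2.07, 2.41 and 6.77 FPKM with saline and 118, 404, 487 and 169 with bleomycin. The lowest bleomycin mouse was thus well above the highest saline mouse for all 4 genes. On the log2 scale of FPKM + 1 the change was 3.75 ± 0.30 (SE; limma adjusted p = 1.17e-05) for Ccl2, 5.72 ± 0.43 (adjusted p = 1.08e-05) for Ccl7, 3.79 ± 0.48 (adjusted p = 4.65e-05) for Ccl12 and 6.08 ± 0.56 (adjusted p = 1.51e-05) for Ccl8. After scaling it was 1.31 ± 0.20, 3.01 ± 0.28, 1.15 ± 0.31 and 3.22 ± 0.53, with limma adjusted p of 0.00041, 2.58e-05, 0.0111 and 0.000586. Macrophage markers moved with these genes: of the 11, 10 could be tested. As deposited 10 rose and after scaling 8, with median log2 changes of 4.64 and 1.74. Fibroblast markers moved with them too, 6 of 6 on either scale, with medians of 5.665 and 2.79. The part of either cell type in the result was not tested.

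These 4 genes lie close together on mouse chromosome 11 (mm10, chr11:82035571-82179812) with Ccl11 and Ccl1. The order there is Ccl2, Ccl7, Ccl11, Ccl12, Ccl8 and Ccl1. Ccl11, or eotaxin, which draws eosinophils, reached at most 0.45 FPKM in any mouse, and Ccl1, a Ccr8 ligand of activated T cells, at most 0.16 FPKM. The rise was therefore seen in 4 of the 6 neighbours, and the other two were below 1 FPKM throughout. The 250 bases before the gene start are shown for the neighbours Ccl12 and Ccl8 that rose and Ccl1 that did not, and for Cxcl10 on chromosome 5, which rose as well, so that their upstream sequence can be set side by side. The sequences are from RefSeq on build GRCm38.p6, 5′ to 3′ on the strand of the gene, and capitals mark matches on either strand to the TATA box TATAAA, to the core of the interferon-stimulated element GAAANNGAA and to the NF-kB consensus. They span chr11:82101595-82101844 on the plus strand for Ccl12, chr11:82114935-82115184 on the plus strand for Ccl8, chr11:82179813-82180062 on the minus strand for Ccl1 and chr5:92348890-92349139 on the minus strand for Cxcl10.
Ccl12: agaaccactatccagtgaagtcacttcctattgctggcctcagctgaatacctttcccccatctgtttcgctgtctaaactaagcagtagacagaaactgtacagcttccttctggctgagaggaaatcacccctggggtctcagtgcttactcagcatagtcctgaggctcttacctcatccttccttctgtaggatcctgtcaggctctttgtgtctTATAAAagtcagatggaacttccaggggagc
Ccl8: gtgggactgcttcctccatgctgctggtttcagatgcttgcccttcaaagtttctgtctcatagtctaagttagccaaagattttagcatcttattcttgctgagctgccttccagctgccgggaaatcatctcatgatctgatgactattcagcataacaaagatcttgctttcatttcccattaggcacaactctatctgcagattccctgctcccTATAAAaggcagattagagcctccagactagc
Ccl1: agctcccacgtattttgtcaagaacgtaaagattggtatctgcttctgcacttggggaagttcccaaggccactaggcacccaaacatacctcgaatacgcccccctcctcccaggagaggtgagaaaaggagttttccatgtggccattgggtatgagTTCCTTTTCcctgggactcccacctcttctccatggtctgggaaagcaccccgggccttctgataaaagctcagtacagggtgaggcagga
Cxcl10: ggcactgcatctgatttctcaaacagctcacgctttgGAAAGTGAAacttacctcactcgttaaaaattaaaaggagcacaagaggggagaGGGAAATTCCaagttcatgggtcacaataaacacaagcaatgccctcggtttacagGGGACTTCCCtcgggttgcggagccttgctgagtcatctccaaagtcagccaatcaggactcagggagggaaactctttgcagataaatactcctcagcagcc
Ccl12 and Ccl8 each held a TATA box, beginning at -31 and -32 counted from the start, and no match to the other motifs, whereas Ccl1 held a core of the interferon-stimulated element on the opposite strand at -91. Cxcl10 held that core at -213 and an NF-kB consensus at -159 and at -103. No motif match overlapped another in these 4 stretches. Of 32851 RefSeq entries of the same length, 12.4% held the TATA box, 7.13% the interferon-stimulated core and 3.90% the NF-kB consensus. Of the 53 entries for chemokine genes, covering 46 of the 61 symbols, 28.3%, 15.1% and 16.98% did, as a description of letters and not of factor binding.

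**Figure D3:**
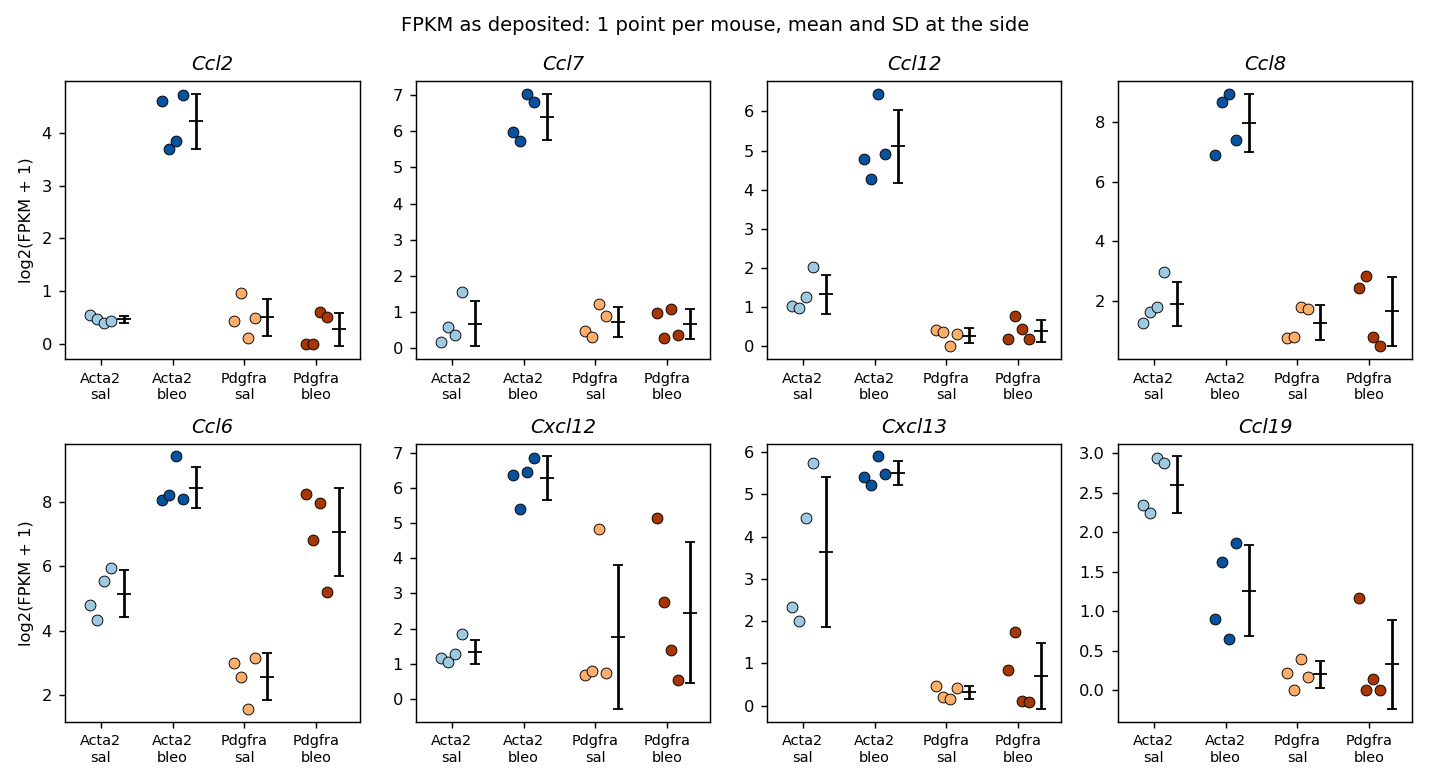
Points give log2(FPKM + 1) in each mouse for 8 chemokine genes in the 4 groups, with the group mean and SD (n = 4) beside them. For Ccl2, Ccl7, Ccl12 and Ccl8 the Acta2-tdT bleomycin mice lie above all other mice, the Ccl6 points of bleomycin mice lie above those of saline mice within either line, and Ccl19 is highest in Acta2-tdT saline.

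Of Ccl6 and Ccl9, CC chemokines of myeloid cells that act on Ccr1, Ccl6 was already present in every Acta2-tdT saline mouse. Ccl9 lay under the gauge of unused genes in saline mice 1 and 2 (2.56 and 2.90 FPKM). Ccl6 was at 26.6, 19.1, 46.01 and 60.5 FPKM with saline and 264, 295, 675 and 269 with bleomycin, a log2 change of 3.28 ± 0.50 (limma adjusted p = 0.000133) that came to 0.34 ± 0.38 (adjusted p = 0.465) after scaling. Ccl9 was at 1.25, 2.13, 3.41 and 7.15 FPKM with saline and 42.6, 59.8, 208 and 59.9 with bleomycin, a change of 4.26 ± 0.57 (limma adjusted p = 6.16e-05) and of 1.48 ± 0.44 (adjusted p = 0.0165) after scaling. The saline and bleomycin mice did not overlap for these genes as deposited, and Ccl9 remained apart after scaling.

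Ccl17, a Ccr4 ligand of dendritic cells and macrophages that draws T helper cells, rose from 1.09, 3.37, 1.97 and 2.28 FPKM to 54.1, 51.8, 82.2 and 30.2. Its log2 change was 4.09 ± 0.39 (limma adjusted p = 1.58e-05) and 1.35 ± 0.38 (adjusted p = 0.0126) after scaling, where the groups overlapped. Ccl22, the other Ccr4 ligand, did not pass the filter and reached 2.25 FPKM at most. Ccl24, or eotaxin-2, a Ccr3 ligand, was uneven among bleomycin mice at 1.03, 24.005, 10.5 and 7.56 FPKM, against 0.13, 0, 1.11 and 0.62 with saline. Its groups overlapped, and its log2 change of 2.58 ± 0.65 (limma adjusted p = 0.00331) became 0.73 ± 0.46 (adjusted p = 0.199) after scaling.

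Among CXC ligands, Cxcl12, the stromal ligand of Cxcr4 and Ackr3, rose from 1.23, 1.09, 1.43 and 2.58 FPKM to 81.9, 40.9, 87.2 and 115. The log2 change was 4.94 ± 0.39 (limma adjusted p = 1.14e-05) and 2.16 ± 0.21 (adjusted p = 2.72e-05) after scaling, with no overlap on either scale. Cxcl14, a ligand of epithelium and stroma whose receptor is not settled, was at 0.24, 0.13, 0.05 and 0.14 FPKM with saline and 24.8, 9.42, 25.9 and 33.0 with bleomycin. Its log2 change was 4.29 ± 0.37 (limma adjusted p = 1.27e-05) and 1.81 ± 0.18 (adjusted p = 3.48e-05) after scaling. Cxcl10, the interferon-induced ligand of Cxcr3, went from 0.75, 0.37, 0.05 and 0.18 FPKM to 16.004, 19.6, 23.5 and 22.6, by 4.02 ± 0.27 (limma adjusted p = 8.75e-06) and by 1.51 ± 0.24 (adjusted p = 0.000468) after scaling. Cxcl9, its neighbour and another Cxcr3 ligand, reached 3.43 FPKM at most and did not pass the filter. Cxcl16, which exists as a membrane-bound form and is the ligand of Cxcr6, went from 0.64, 0.71, 0.77 and 1.65 FPKM to 11.6, 17.7, 41.5 and 27.9, by 3.61 ± 0.40 (limma adjusted p = 2.33e-05) and by 1.09 ± 0.23 (adjusted p = 0.00316) after scaling. Cxcl16 overlaps Zmynd15, which averaged 14.3 FPKM in the same group, and reads of overlapping genes cannot be told apart here. Fibroblast markers moved with these ligands, all 6 detected, from a summed 19.1 to 38.7 FPKM with saline to 1030 to 3143 with bleomycin. Macrophage markers rose as well, as given above, and the part of either cell type in the result was not tested.

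Cxcl13, the Cxcr5 ligand that organises B cell follicles, was uneven among saline mice, at 4.03, 2.99, 20.8 and 52.5 FPKM, and lay at 41.6, 36.2, 58.8 and 43.5 with bleomycin. The groups overlapped, and its log2 change of 1.87 ± 0.76 (limma adjusted p = 0.0381) turned to -0.88 ± 0.63 (adjusted p = 0.258) after scaling. Its call was lost in 6 of the 8 fits that left out 1 mouse, the change ranging from 1.33 to 2.58.

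Ccl19, the Ccr7 ligand of lymphoid stroma that draws dendritic cells and naive T cells, was the single member called lower among the 26 tested as deposited. It was at 4.10, 3.72, 6.70 and 6.35 FPKM with saline and 0.88, 2.09, 0.57 and 2.63 with bleomycin, with no overlap. The log2 change was -1.34 ± 0.33 (limma adjusted p = 0.00316), and -2.47 ± 0.17 (adjusted p = 2e-05) after scaling. The pseudogene Ccl19-ps1 moved the same way, from 10.3 to 21.6 FPKM with saline to 0 to 3.25 with bleomycin, so reads may have been split between near-identical copies and the level of Ccl19 itself is uncertain. Ccl21a, the other Ccr7 ligand, was at 0 to 0.59 FPKM with saline and 0.68 to 8.31 with bleomycin and did not pass the filter. Without the filter, 25 of 58 members were called higher and 5 lower, where 23.8% and 12.6% of 42342 genes were. The 5 were Ccl19 and, at 0.42 to 1.95 FPKM with saline and 0 to 0.73 with bleomycin, Ccr9, Ccr3, Ccl28 and Ccl20, by limma log2 changes of -0.78, -0.75, -0.65 and -0.64 (adjusted p = 0.0369, 0.0138, 0.0139 and 0.0079). These 4 did not overlap between the groups, and their saline levels lay under the 2.75 FPKM that marked the gauge of unused genes in that group. Among the 25 rises were Ccl21a, Cxcl9 and Ccl22, which had not passed the filter, at 1.73, 1.18 and 0.86 (limma adjusted p = 0.0231, 0.0216 and 0.0402), with no overlap between the groups.

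Scaling moved the median log2 change over all genes by -1.78, so modest rises as deposited tend to turn by construction. The share of all genes that turned was not counted. Direction turned with scaling for 9 tested members. They were the neutrophil-drawing Cxcr2 ligands Cxcl1 (log2 change 1.15, scaled -0.08) and Cxcl2 (1.72, scaled -0.39), the macrophage and T cell chemokines Ccl3 (1.79, scaled -0.39) and Ccl5 (0.99, scaled -1.05), Ccl25 (1.58, scaled -0.10), Ccl27a (0.98, scaled -0.97), Cxcl13, Ccr2 (1.68, scaled -0.14) and Cxcr2 (1.27, scaled -1.02). Of these, Ccl27a and Cxcr2 were lower after scaling by limma (adjusted p = 0.018 and 0.00633), as was Cxcl15, or lungkine, a chemokine of lung epithelium, at -0.93 ± 0.16 (adjusted p = 0.000775). Cxcl15 itself stayed at 0.90 to 1.29 FPKM with saline and 0.39 to 2.89 with bleomycin. As deposited its change was -0.09 (limma adjusted p = 0.791), and its saline levels lay under the 2.75 FPKM gauge of unused genes. Ccl27a overlaps Il11ra1 and Ccl25 overlaps Elavl1, which averaged 12.3 and 35.3 FPKM in Acta2-tdT bleomycin. Cx3cl1, the membrane-bound ligand of Cx3cr1, rose by 2.32 ± 0.33 (limma adjusted p = 9e-05) to 5.80 to 11.7 FPKM, and its scaled change was 0.17 ± 0.19 (adjusted p = 0.472).

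**Figure D4:**
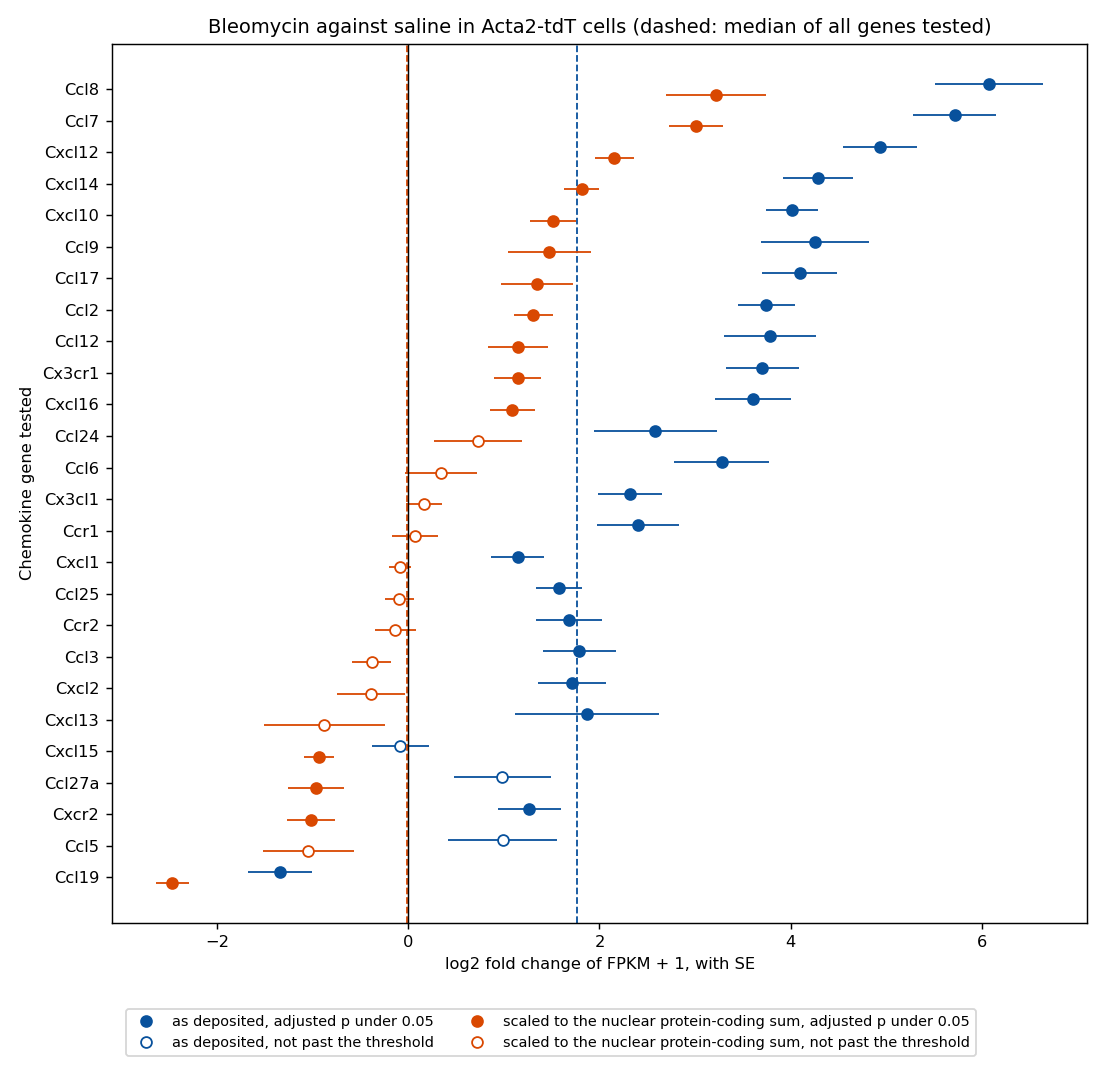
Log2 fold change of FPKM + 1 with SE for the 26 chemokine genes tested in Acta2-tdT cells, bleomycin against saline, as deposited (blue) and scaled to the nuclear protein-coding sum (orange), filled where the limma adjusted p is under 0.05. Dashed lines give the median of all 12523 genes tested (1.76 and -0.01), and Ccl8, Ccl7 and Cxcl12 lie farthest above them on either scale.

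Receptors in Acta2-tdT cells were fewer and lower than ligands. Cx3cr1, the fractalkine receptor of monocytes and macrophages, was at 0.78, 0.64, 1.008 and 1.87 FPKM with saline and 14.0, 23.4, 45.3 and 27.6 with bleomycin. Its log2 change of 3.70 ± 0.38 (limma adjusted p = 1.86e-05) remained 1.15 ± 0.25 (adjusted p = 0.00302) after scaling, with no overlap on either scale. In the annotation its locus also spans several other genes. Ccr1, the myeloid receptor of Ccl6 and Ccl9, went from 0.92, 0.95, 1.53 and 3.11 FPKM to 11.9, 5.91, 25.7 and 11.9, by 2.40 ± 0.43 (limma adjusted p = 0.000409) and by 0.07 ± 0.24 (adjusted p = 0.809) after scaling. Cxcr2, the neutrophil receptor, was at 3.53, 3.13, 3.33 and 4.49 FPKM with saline and 16.9, 8.77, 6.22 and 10.8 with bleomycin, the direction of which turned with scaling as given above. Beside Cxcr2, the 10 neutrophil markers gave 7 tested, of which 5 rose as deposited and 4 fell after scaling. Of all genes tested, 70.4% rose as deposited and 32.5% fell after scaling. The part of neutrophil markers in the result was not tested. Ccr2, the receptor of Ccl2, reached 2.23 to 9.48 FPKM with bleomycin and 0.38 to 1.09 with saline.

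Some ligands with a high level stood beside a receptor at a low one, and others did not, in pairs chosen after their values were seen. Cxcl12 reached 115 FPKM, but Cxcr4 was at most 0.75 FPKM in any mouse and Ackr3 at most 0.08 in Acta2-tdT bleomycin. Ccl8 reached 487 FPKM in Acta2-tdT bleomycin, where Ccr8 ranged from 0 to 1.66. Cxcl13 and Cxcl10 had partners at most at 0.37 FPKM (Cxcr5) and 1.47 FPKM (Cxcr3), and Ccr4, the receptor of Ccl17, reached 0.57. In contrast, Ccl2, Ccl7 and Ccl12 stood beside Ccr2 at 2.23 FPKM or more, Cxcl1 and Cxcl2 beside Cxcr2 at 6.22 or more, Ccl6 and Ccl9 beside Ccr1 at 5.91 or more, and Cx3cl1 at 5.80 or more beside Cx3cr1 at 14.0 or more, in all 4 Acta2-tdT bleomycin mice.

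Between the lines with saline, few chemokine genes could be told apart. Of 11 members tested, 2 were higher in Acta2-tdT and 0 lower, where 2.72% of 8153 genes were higher and 0.184% lower. Ccl19 was at 0.17, 0, 0.32 and 0.13 FPKM in Pdgfra-tdT saline against 3.72 to 6.70 in Acta2-tdT saline, a log2 difference of 2.40 ± 0.23 (limma adjusted p = 0.00275) and of 2.53 ± 0.23 (adjusted p = 0.000951) after scaling. Ccl6 was at 7.07, 4.89, 1.98 and 7.998 FPKM against 19.1 to 60.5, a difference of 2.57 ± 0.53 (limma adjusted p = 0.0442) and of 2.33 ± 0.63 (adjusted p = 0.0943) after scaling. Cxcl13 was at 0.38, 0.16, 0.12 and 0.34 FPKM against 2.99 to 52.5, a difference of 3.31 ± 0.80 (limma adjusted p = 0.0797) and of 3.33 ± 0.67 (adjusted p = 0.032) after scaling, so that 2 members were called after scaling too, where 3.02% of genes were. None of these 3 genes overlapped between the lines. Ccl19 and Cxcl13 passed the filter through the Acta2-tdT mice alone, and Ccl6 kept its call in 1 of the 8 fits that left out 1 mouse. That fit left out Pdgfra-tdT saline mouse 3, and 4 of the 10 members then tested were called, Ccl6, Ccl19, Cxcl13 and Ccl27a, where 29.1% of all 7356 genes were, against 2.91% with all mice, whereas 0 were called in each fit without an Acta2-tdT saline mouse, in which Ccl19 and Cxcl13 no longer passed the filter. Neutrophil markers differed between the lines as well, at 741 to 1519 against 20.8 to 44.7 summed FPKM, and their part in the result was not tested. The median difference of the 11 members was 0.72 against 0.17 over all genes.

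With bleomycin, Acta2-tdT cells had more of most tested chemokine mRNAs than Pdgfra-tdT cells. Of 26 members tested, 23 were higher and 0 lower, against 71.0% of 11995 genes higher and 8.61% lower. After scaling, 9 were higher, against 17.2%, and 2 were lower, against 17.5%. The 9 were Ccl8, Ccl7, Cxcl13, Ccl12, Cxcl14, Cxcl10, Cx3cr1, Ccl2 and Ccl5, in falling order of scaled difference, and 8 of the 26 tested members reached 1 FPKM in the Acta2-tdT mice alone. The filter favoured a higher value for these 8, and 5 of them, Ccl12, Cxcl14, Cxcl10, Ccl2 and Ccl5, were among the 9. Ccl8 was at 4.38, 6.15, 0.73 and 0.40 FPKM in Pdgfra-tdT bleomycin, Ccl7 at 0.96, 0.22, 1.14 and 0.29, Ccl12 at 0.13, 0.71, 0.37 and 0.15, and Ccl2 at 0, 0, 0.51 and 0.42. All of these lay below the lowest Acta2-tdT bleomycin mouse, by log2 differences of 6.34 ± 0.84, 5.71 ± 0.57, 4.71 ± 0.54 and 3.94 ± 0.42 as deposited and 3.79 ± 0.67, 3.08 ± 0.35, 2.16 ± 0.36 and 1.48 ± 0.30 scaled. Cxcl13 was at 0.81, 2.36, 0.08 and 0.07 FPKM in Pdgfra-tdT bleomycin, lower by 4.80 ± 0.54 and scaled by 2.31 ± 0.40 (limma adjusted p = 6.9e-05 and 0.0038). Cxcl14 stayed at or under 0.13 FPKM there and Cxcl10 at or under 0.36. Ccl5, a chemokine made by T cells and macrophages, was at 2.93 to 15.5 FPKM in Acta2-tdT and 0 to 0.40 in Pdgfra-tdT bleomycin. The 2 genes lower after scaling were Cxcr6 (-1.06 ± 0.29, adjusted p = 0.0203) and Cxcl15 (-0.96 ± 0.29, adjusted p = 0.0272) by limma, both overlapping between the lines. Cxcl15 was at 0.85 to 2.14 FPKM in Pdgfra-tdT bleomycin, under the 2.98 FPKM gauge of unused genes in that group. Ccl6, in contrast, differed by 1.38 ± 0.94 (limma adjusted p = 0.187) and by -1.24 ± 0.69 (adjusted p = 0.181) after scaling. Macrophage markers, at 2286 to 9983 against 382 to 3241 summed FPKM, gave 8 of 11 higher in Acta2-tdT as deposited and 2 of 11 after scaling. Fibroblast markers, at 1030 to 3143 against 2.62 to 160 summed FPKM, gave 6 of 6 and 5 of 6, and neutrophil markers, at 1163 to 5739 against 8.40 to 147, gave 7 of 7 tested and 4 of 7. The part of these cell types in the result was not tested.

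In Pdgfra-tdT cells, bleomycin brought no chemokine gene past the threshold. Of 8 members tested, limma called 0, where 0.124% of 7275 genes were called as deposited and 0.151% after scaling. At an unadjusted p under 0.05 there were 2 of the 8 members and 4.29% of all genes. Those 2 were Ccl6 and Ccl9. Ccl6 was at 7.07, 4.89, 1.98 and 7.998 FPKM with saline and 299, 112, 246 and 36.2 with bleomycin, a log2 change of 4.48 ± 0.78 (limma adjusted p = 0.242) and of 3.91 ± 0.97 (adjusted p = 0.391) after scaling. Ccl9 was at 1.19, 0.98, 0.95 and 1.89 FPKM with saline and 24.9, 18.4, 23.0 and 3.53 with bleomycin, a change of 2.78 ± 0.61 (adjusted p = 0.471) and of 2.34 ± 0.66 (adjusted p = 0.567) after scaling by limma. The groups did not overlap for either gene on either scale, which gives an exact two-sided permutation p of 0.0286, the smallest that 70 labellings of 8 mice allow. Any gene without overlap gets that value, which is not adjusted, and these 2 genes were picked for their low p. It therefore adds nothing to the limma result, and the share of all genes without overlap was not counted. Without bleomycin mouse 8, the lowest for these genes, limma called both, where 1.07% of all genes were called. The macrophage markers moved with them, from 42.4 to 89.9 to 382 to 3241 summed FPKM, with 0 of 6 tested passing the threshold and a median log2 change of 3.52, and their part in the result was not tested.

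The other 6 tested members gave log2 changes of -0.56 to 0.69. Cxcl12 was at 0.60, 0.72, 27.6 and 0.67 FPKM with saline and 34.3, 5.71, 1.64 and 0.45 with bleomycin, so that saline mouse 3 and bleomycin mouse 5 decided its level in either group. Without them it was at 0.60 to 0.72 FPKM with saline and 0.45 to 5.71 with bleomycin, and it did not pass the filter when either mouse was left out. Endothelial markers summed to 544 FPKM in saline mouse 3 and 1273 in bleomycin mouse 5, against 5.62 to 14.3 and 5.54 to 138 in the other mice of these groups, and their part in the levels of these 2 mice was not tested. Ccl17 reached 12.9 FPKM in bleomycin mouse 6 and 4.83 in mouse 7 but 0.29 and 0 in the others. Among atypical receptors, Ackr2, a scavenger of CC ligands, was at 14.2 FPKM in bleomycin mouse 5 and at 0.15 to 1.35 in the other 3, Ackr3 was at 2.94 in that mouse, and Ackr4, which clears Ccl19 and Ccl21, was at 3.24 in saline mouse 3 and at 0.24 or less in every other Pdgfra-tdT mouse. Saline mouse 3 had Ackr2 at 2.19 and Ackr3 at 1.21 FPKM, against 0.15 to 0.41 and 0.19 to 0.32 in the other saline mice, and Ackr3 was at 0.09 to 0.31 in the other bleomycin mice. Cxcl17, a mucosal chemokine, was at 1.19, 0.77, 3.66 and 0.77 FPKM with saline and 0, 1.21, 1.07 and 0.48 with bleomycin. For these genes the groups overlapped.

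Whether bleomycin acted differently in the lines was asked by the line by treatment interaction over all 16 mice, with a positive value where the rise was larger in Acta2-tdT. Of 31 members tested, 17 were positive and 1 negative, against 36.6% and 3.20% of 16605 genes. After scaling 5 were positive, against 1.39%, and 1 negative, against 0.687%. Of the 31, 5 reached 1 FPKM in Acta2-tdT bleomycin mice alone (Ccl2, Ccl25, Cxcl1, Cxcl10 and Cxcl14), so the filter favoured a positive value for them, and 3 of these were among the 5 called after scaling. The 5 were Ccl7 (5.77 ± 0.57, scaled 3.27 ± 0.44), Ccl8 (5.70 ± 0.91, scaled 3.27 ± 0.80), Cxcl14 (4.26 ± 0.41, scaled 1.83 ± 0.22), Ccl2 (3.98 ± 0.40, scaled 1.66 ± 0.40) and Cxcl10 (4.04 ± 0.31, scaled 1.64 ± 0.30). Their scaled limma adjusted p-values were 0.000895, 0.0488, 0.000297, 0.0451 and 0.00973. The negative member was Ccl19 at -1.47 ± 0.45 (limma adjusted p = 0.0195) and -2.40 ± 0.26 (adjusted p = 0.000149) after scaling. For Ccl6 the interaction was -1.19 ± 0.99 (adjusted p = 0.336) and -3.57 ± 0.89 (adjusted p = 0.0524) after scaling by limma. Cxcl12, at 4.24 ± 1.38 (limma adjusted p = 0.0252), did not pass after scaling (adjusted p = 0.345), nor did Ccl12 and Cx3cr1 (adjusted p = 0.167 and 0.141). The median over tested members was 1.52 as deposited and -0.09 scaled, against 1.05 and -0.22 over all genes. Marker genes moved with the interaction too, positive as deposited and after scaling in 5 and 3 of 6 fibroblast markers, 5 and 0 of 11 macrophage markers and 3 and 0 of 7 neutrophil markers tested, and their part in the result was not tested.

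**Figure D5:**
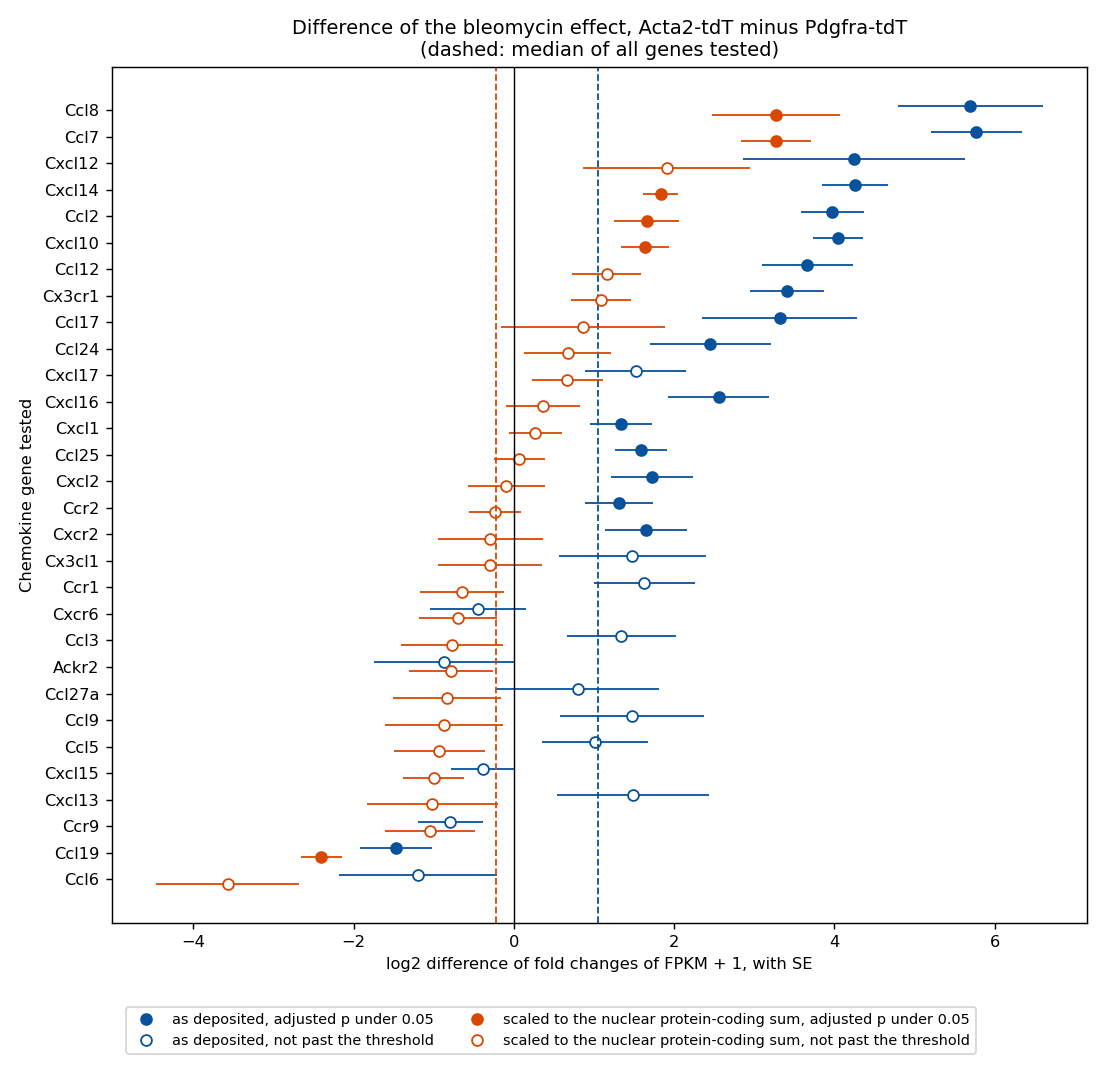
Log2 difference of the bleomycin effect between lines, Acta2-tdT minus Pdgfra-tdT, with SE, for 30 of the 31 chemokine genes tested over 16 mice, as deposited (blue) and scaled (orange), filled where the limma adjusted p is under 0.05. Dashed lines give the median over all 16605 genes tested (1.05 and -0.22), and Ccl7, Ccl8, Cxcl14, Cxcl10 and Ccl2 are filled above 0 on either scale.

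Genes that work with the chemokine system rose in Acta2-tdT cells on the deposited scale, as 70.4% of all genes did. After scaling, where 24.5% of all genes rose and 32.5% fell, fewer of them were called, in either direction. Of 31 genes of receptor signalling, from G protein subunits to Rac and its exchange factors, 30 were found. Of the 20 tested in Acta2-tdT cells, 19 rose with bleomycin and 0 fell, and after scaling 3 rose and 2 fell, with a median log2 change of 0.26. Rgs2, a brake on G protein signalling, was at 60.6 to 164 FPKM with saline and 125 to 207 with bleomycin, and Gng5, a G protein gamma subunit, at 20.5 to 38.8 and 247 to 494. Of 20 genes of cytokines and NF-kB signalling known to induce chemokines, 13 were tested, 12 rose and 1 fell, and after scaling 4 rose and 2 fell. Il1b, the inflammasome-released cytokine, rose by 1.58 ± 0.47 (limma adjusted p = 0.00924) as deposited and had a scaled change of -1.22 ± 0.44 (adjusted p = 0.0389). Nfkbia, the inhibitor and target of NF-kB, rose by 3.16 ± 0.47 (limma adjusted p = 0.000118) and by 0.32 ± 0.30 (adjusted p = 0.384) after scaling. Of 12 chemokine-like genes that the symbols did not catch, 8 were tested, 7 rose and 0 fell, and after scaling 1 rose and 3 fell. Rarres2, or chemerin, was at 78.7 to 168 FPKM with saline and 191 to 362 with bleomycin, and the platelet chemokine Pf4 at 7.94 to 53.3 and 109 to 340. In Pdgfra-tdT cells 0 genes of these 3 lists passed the threshold, of 9, 3 and 6 tested. Of all 7275 genes tested there, 0.124% were called as deposited and 0.151% after scaling.

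The members below 1 FPKM in every mouse were the ligands Ccl1, Ccl11, Ccl20, Ccl26, Cxcl3 and Cxcl5, the receptors Ccr1l1, Ccr4, Ccr6, Cxcr4 and Cxcr5 and the atypical receptor Ackr1, with maxima from 0.12 FPKM (Ccr1l1) to 0.93 FPKM (Ccl20). Listed at 0 in every mouse were Ccl27b, 2 genes each under the names Ccl21b and Ccl21c, and the extra copies of Ccl19, Ccl21a and Ccl27a, 7 of them on random sequences of chromosome 4, and reads may have been split among near-identical copies. Among the members not described above, Ccl4, Ccr7, Ccr10, Cxcr1, Xcl1 and Xcr1 reached at most 2.51 FPKM (Ccl4).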

How the data were processed

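RNA of tdTomato-positive cells sorted from the left lung lobe of 16 mice was sequenced after SmartSeq2 library preparation, which does not mark strand. The deposited values are FPKM per gene entry, made by the authors, who aligned reads to mm10 with TopHat2 2.1.1 and Bowtie2 2.2.9 and quantified with Cufflinks 2.1.1. FPKM carry no read counts, so the depth per mouse is unknown and no counting interval was given.

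FPKM were summed per gene identifier, leaving out 15 genes whose quantification status was not accepted, and scaled values set the sum over 21961 nuclear protein-coding genes to 51979 in each mouse. Groups were taken from the labels. Genes with at least 1 FPKM in at least 4 of the mice compared were tested with limma 3.58.1 in R 4.3.3 on log2(FPKM + 1), a pseudocount of 1, with Benjamini-Hochberg adjustment over all genes tested and a threshold of 0.05. Fold changes on this scale understate those of low genes. The limma step, the exact permutation test and the motif search were tested on simulated data. Promoter sequences came from RefSeq (GRCm38.p6), and tables were handled with Python 3.11.15 and pandas 2.3.3.

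The members, gene lists and tests were chosen with earlier results of these data known. Members with a mean of at least 10 FPKM in a group were given by mouse. Given by range or fold were up to 5 of the largest called rises and falls in each comparison, every call between lines with saline or in Pdgfra-tdT, and members whose direction turned with scaling. Others named were chosen after their values were seen. Alternatives were the nuclear protein-coding sum, quantile normalization, a pseudocount of 0.1, no filter or a mean of at least 5 FPKM, sample weights, all 16 mice in 1 fit, a replicate block and leaving out each mouse. Of the members, 1 is counted but not reported here.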

Additional observations from a re-analysis of the deposited data

Results flagged for a closer look

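Among 64 sets of 4 mice, 1 for each of the 16 chemokine genes with a group mean of at least 10 FPKM in each group, 6 had a mouse far from the other 3, where chance gives about 1 in 20. Pdgfra-tdT saline mouse 3 was such a mouse for 3 genes, with Cxcl12 at 27.6 FPKM, Cxcl10 at 0.443 FPKM and Cxcr2 at 0.973 FPKM. Acta2-tdT bleomycin mouse 7 had Ccl6 at 675 FPKM, Acta2-tdT saline mouse 4 had Cxcl16 at 1.65 FPKM and Pdgfra-tdT bleomycin mouse 8 had Ccl9 at 3.53 FPKM.

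The effect of bleomycin differed between the lines by the limma interaction term for 12 of these 16 genes, where 39.8% of all genes tested were called. All 16 had a mean of at least 10 FPKM in Acta2-tdT bleomycin, and 12 of them in that group alone, so their choice favoured a positive difference. On the log2 scale of FPKM + 1 the difference was 5.77 for Ccl7, 5.70 for Ccl8, 4.26 for Cxcl14, 4.24 for Cxcl12, 4.04 for Cxcl10, 3.98 for Ccl2, 3.66 for Ccl12, 3.41 for Cx3cr1, 3.32 for Ccl17, 2.56 for Cxcl16, 2.45 for Ccl24 and 1.65 for Cxcr2. After scaling, the difference passed the threshold for Ccl7, Ccl8, Cxcl14, Cxcl10 and Ccl2 of these genes.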

How the results depend on the processing

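With the nuclear protein-coding sum, the number of chemokine genes called was 11 between lines with bleomycin (23 as deposited), 15 for bleomycin in Acta2-tdT (23) and 6 for the interaction (18), of 26, 26 and 31 tested, where 34.7%, 56.9% and 2.08% of all genes were called. Directions turned in Acta2-tdT for 9 members, Cxcl13 (-0.88), Ccl3 (-0.39), Cxcl1 (-0.084), Ccr2 (-0.14), Cxcl2 (-0.39), Cxcr2 (-1.02), Ccl25 (-0.10), Ccl5 (-1.05) and Ccl27a (-0.97), between lines with saline for Ccr9 (-0.19), between lines with bleomycin for Ccr2 (-0.11), Cx3cl1 (-0.15), Cxcl1 (-0.093), Cxcr2 (-0.12), Ccl9 (-0.20) and Ccl6 (-1.24), in Pdgfra-tdT for Ccl8 (-0.051) and Ccr9 (-0.24), and in the interaction for 10, Cxcl2 (-0.092), Ccr2 (-0.23), Cxcl13 (-1.02), Ccr1 (-0.64), Cxcr2 (-0.29), Ccl9 (-0.87), Ccl3 (-0.77), Ccl5 (-0.93), Ccl27a (-0.83) and Cx3cl1 (-0.30). Quantile normalization gave 1 call between lines with saline (2 in the report), 11 between lines with bleomycin and 8 for the interaction, where 2.93%, 34.9% and 9.61% of all genes were called. Of the members called or with a group mean of at least 10 FPKM, it turned the interaction of Ccl9 (-0.32), Cxcl13 (-0.57) and Ccr1 (-0.38), the Acta2-tdT change of Cxcr2 (-0.83), Ccl3 (-0.019) and Cxcl13 (-0.55), the saline difference of Cxcr2 (-0.002) and the bleomycin difference of Ccr2 (-0.18), Cxcl1 (-0.17), Cxcr2 (-0.064), Ccl9 (-0.061) and Ccl6 (-0.62). For the interaction, a pseudocount of 0.1 gave 8 calls and a mean of at least 5 FPKM gave 9, where 20.9% and 28.8% of all genes were called. Between lines with saline, no filter gave 1 of 58 tested (0.135% of all genes), a mean of at least 5 FPKM 0 of 2 (1.45%), and sample weights 4 of 11 tested, where 33.3% of all genes were called (2.91% in the report), with Cxcl12 at 0.47 (-0.43 in the report). In Pdgfra-tdT, sample weights gave 2 calls of 8 tested, Ccl6 and Ccl9, where 7.53% of all genes were called (0.124% in the report), and all 16 mice in 1 fit gave 1 of 31, Ccl6, where 0.0301% were. Apart from the construction of the scalings and filters, the cause was not tested.

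Leaving out each mouse in turn gave 0 to 4 calls between lines with saline, 12 to 23 between lines with bleomycin, 17 to 24 in Acta2-tdT, 0 to 2 in Pdgfra-tdT and 10 to 20 for the interaction, while 0.200% to 29.1%, 65.0% to 88.7%, 79.1% to 88.1%, 0% to 1.07% and 25.1% to 56.8% of all genes were called, and took the saline difference of Cxcl12 to between -0.79 and 0.60. Without Acta2-tdT bleomycin mouse 5, 6, 7 or 8 in turn, 14, 15, 12 and 12 members were called between lines with bleomycin, of 17 or 18 tested (72.6%, 79.7%, 65.9% and 65.0% of all genes), and 12, 14, 10 and 11 in the interaction, of 25 tested (31.7%, 40.4%, 25.2% and 25.1%), and members at 1 FPKM or more in those 4 mice alone no longer passed the filter in any of these fits. Without mouse 7 or mouse 8 Ccl9 was not called between lines with bleomycin, and Cxcl12 lost its interaction call without either of these or Pdgfra-tdT bleomycin mouse 7 or 8, as did Ccl19 without Acta2-tdT bleomycin mouse 7.

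Mouse numbers recur in the lines, but same-numbered mice correlated at -0.09 to 0.16 with saline and -0.31 to 0.07 with bleomycin in their deviations from group means, so the numbers were not taken to pair the mice. The replicate block left 1 call with saline, Ccl19, and 22 with bleomycin, where 0.442% and 78.2% of all genes were called. Together with the nuclear protein-coding sum, a choice made after seeing the data, it left 1 and 11 (1.20% and 28.0%), with the same bleomycin differences as the sum alone (Cx3cl1 -0.15, Cxcl1 -0.093, Cxcr2 -0.12, Ccl9 -0.20, Ccl6 -1.24 and Ccr2 -0.11).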
